A study of Drosophila melanogaster with 58 samples.

Results

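The genes described here encode Beat, Side and related immunoglobulin surface proteins of Drosophila melanogaster. They are the 37 rows, of 12453 gene symbols in the deposited count table, whose symbol starts with beat- or side, or is 1 of 16 further names: Dscam2, Dscam3, Dscam4, rst, kirre, sns, hbs, tutl, bdl, ed, fred, Lac, Cont, klg, Ama and ImpL2. The rule uses gene symbols and no measured value, but it was chosen with earlier results of these data known. The list holds 13 Beat genes, 8 Side genes, 3 Dscam paralogs, 4 genes of the irre cell recognition module (rst, kirre, sns, hbs), 2 Turtle genes (tutl, bdl), 2 Echinoid genes (ed, fred), 2 septate junction genes (Lac, Cont) and 3 others (klg, Ama, ImpL2). All 37 passed the filter on low counts.

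RNA was counted in 58 libraries of mushroom body neurons, the intrinsic cells of the fly's centre for olfactory memory. Gamma neurons, which regrow axons after pruning them, were sampled at 18, 21, 24, 27 and 30 h after pupa formation (5, 5, 5, 3 and 5 libraries) and in adults 3 to 5 days after eclosion (5 libraries). Alpha-beta neurons, which extend their axons for the first time, were sampled at the same pupal stages (5, 5, 6, 4 and 5 libraries) and in adults (5 libraries). Each library came from 1000 GFP-positive cells sorted from dissociated brains of flies of both sexes reared at 25 °C. No mutation or drug treatment is named for any group, and the driver of the GFP, the fly strains and the number of brains per library are not given in the sources used here. The labels do not say that libraries came from separate dissections, so p-values measure the spread between these libraries, which may be technical.

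Beat and Side proteins were found through motor axon guidance: Side on tissues along the route acts as an attractant, and Beat-Ia on motor axons is its receptor. The families have since been shown to bind each other in specific pairs, among them Beat-VI with Side-II and Beat-IIb with Side-IV, and are studied as matching labels between synaptic partners in the fly brain. The other members are immunoglobulin proteins with related tasks, namely recognition between like cells, spacing of neighbouring axons, fusion of myoblasts and sealing of septate junctions.

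Library totals spanned 4403619 to 27242758 counts. A count of 0 therefore allowed a level of up to 0.111 to 0.692 CPM, the value of 3 counts in the deepest and the shallowest library. Levels are in CPM, the library-size-scaled read counts of a gene after TMM normalisation, and means are given with the SD. Every one of 9 fixed Kenyon cell markers (the neurons of the mushroom body) was detected in every group. Adult libraries stood apart in quality: in 5 of them, gamma replicates 1 and 5 and alpha-beta replicates 2, 4 and 5, the median gene had a count of 0, and 5266 to 6216 genes had any count. Adult calls are also given without these 5 libraries, an alternative chosen after seeing the data that leaves 3 adult gamma and 2 adult alpha-beta libraries. In these bulk samples, fewer cells that express a gene and less RNA per cell cannot be told apart.

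Averaged over all 58 libraries, beat-VI had the highest level of the members at 414 CPM, followed by tutl at 377 CPM, side-II at 321 CPM, Dscam2 at 300.4 CPM and klg at 204 CPM. Per kilobase of exon the order was beat-VI at 117 CPM, Lac at 65.4, side-II at 60.5, klg at 50.3 and tutl at 38.1 CPM per kilobase. The order differed between groups: beat-VI ranked 1 to 3 per kilobase in each of the 12 groups, and side-II ranked 2 to 4 in the pupal groups but 5 in adult gamma and 14 in adult alpha-beta neurons. Lac ranked 1 to 3 in the pupal groups, and 23 in adult gamma and 29 in adult alpha-beta neurons. At the other end, ImpL2, a secreted protein that binds insulin-like peptides, had 0.832 CPM and was detected in 25 of 58 libraries, Ama in 25 and bdl in 21. Within a family the range was wide: beat-Va averaged 9.29 CPM, against 414 CPM for beat-VI, and side-V averaged 12.7 CPM, against 321 CPM for side-II. The members are long genes, with a median span of 37181 bp in the BDGP6 gene models of Ensembl, against 2678 bp for all tested genes that could be matched (9895 of 10072). Of the exons of side-IV, 50% of the bases are overlapped by an antisense RNA gene, asRNA:CR46354, and 61.9% of those of ImpL2 by CG46460 on the same strand. The protocol does not mark strand, so the levels of side-IV and ImpL2 may include reads of these neighbours.

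**Figure D1:**
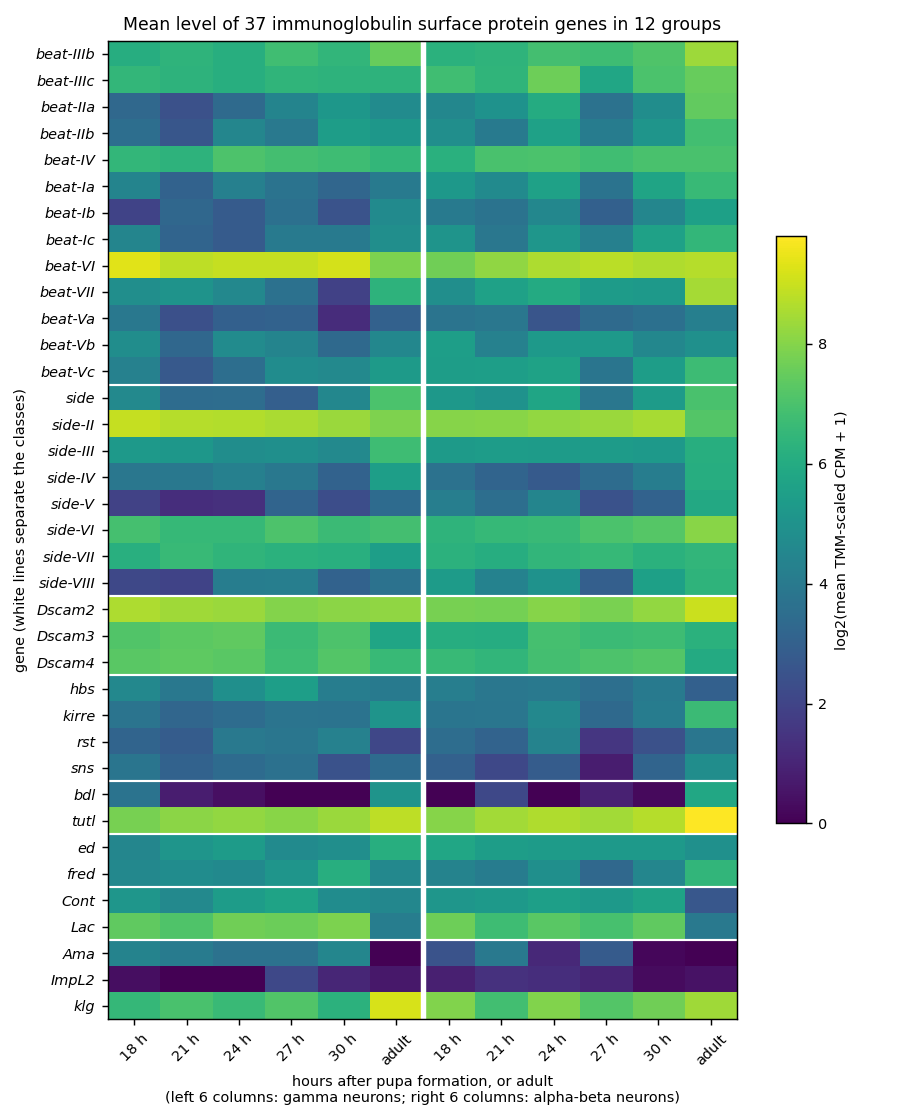
Mean level of the 37 genes (rows, by class) in the 12 groups, with gamma neurons in the left 6 columns and alpha-beta neurons in the right 6, each from 18 h to adult, as log2(mean TMM-scaled CPM + 1). beat-VI, side-II, Dscam2 and tutl are bright throughout, Lac is dark in both adult columns, and bdl and ImpL2 are dark in nearly all pupal columns.

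The first comparison asked how gamma neurons differed from alpha-beta neurons over the 5 pupal stages, weighted equally. The labels do not say at which of these stages gamma axons were regrowing. In gamma neurons beat-VI was higher, and klg, beat-VII and side were lower. These 4 members of 37 (10.8%) were called at an adjusted p under 0.05 (edgeR quasi-likelihood test, Benjamini-Hochberg adjustment over 10072 genes), against 6.27% of all genes tested. The 1 member called higher and the 3 called lower stand against 2.17% of all genes called higher and 4.1% called lower. A further 12 members had an unadjusted p under 0.05 and were not called, which made 16 in all. The share of all genes under that unadjusted threshold is not given here, for this or the later comparisons. Such counts therefore do not show an excess among the members. The median log2 fold change, gamma over alpha-beta, was -0.36 over the members and -0.04 over all genes. Of the 37 members, 13 had a positive one, and the share of all genes with a positive one is not given here.

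beat-VI ranged from 246 CPM (median 538, highest 928) in the 23 pupal gamma libraries, against 152 CPM (median 363, highest 513) in the 25 pupal alpha-beta libraries. Of the gamma libraries, 15 lay above the highest alpha-beta library, while the lower ones overlapped with alpha-beta. The group means at 18, 21, 24, 27 and 30 h were 661, 448, 484, 483 and 575 CPM in gamma neurons, against 205, 289, 386, 440.4 and 394 CPM in alpha-beta neurons. The gap was therefore wide at 18 h and narrow at 27 h. For beat-VI the log2 fold change was 0.66 (SE 0.12, edgeR adjusted p = 0.000123), and it stayed called without any single library.

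beat-VII was lower in gamma neurons. It ranged from 0 CPM (median 12.2, highest 68.2) in gamma libraries, against 1.93 CPM (median 38.8, highest 152) in alpha-beta libraries. The ranges overlapped, with 21 of 25 alpha-beta libraries above the gamma median. For beat-VII the log2 fold change was -1.54 (SE 0.47, edgeR adjusted p = 0.0329). The call ended without gamma 27 h replicate 2 or 4, alpha-beta 24 h replicate 4, alpha-beta 27 h replicate 5 or alpha-beta 30 h replicate 3 (log2 fold change -1.45 to -1.43, adjusted p 0.0508 to 0.088), and in a fit of the pupal groups alone (adjusted p = 0.054). Among the other Beat genes, beat-Ia (log2 fold change -1.33), beat-IIa (-1.13), beat-Ic (-1.18) and beat-Vc (-1.25) had unadjusted p-values under 0.05 and were not called. Altogether 12 of the 13 Beat genes had a negative log2 fold change, with a median over the family of -0.91. Only beat-VII among those 12 was called, and the share of all genes with a negative value is not given here.

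side, the founding ligand of its family, averaged 15.3 ± 14.1 CPM (SD, n = 23) in gamma and 36.4 ± 30.5 CPM (SD, n = 25) in alpha-beta neurons. It ranged from 0 CPM (median 12.7, highest 64.2) in gamma libraries, against 7.42 CPM (median 26.7, highest 124) in alpha-beta libraries, and these ranges overlapped widely. For side the log2 fold change was -1.29 (SE 0.41, edgeR adjusted p = 0.042). It was not called with the replicate number as a block (-1.04, adjusted p = 0.127) or with the S number of the library name as a block (-1.21, adjusted p = 0.0597). It lost that call in 18 of 48 fits that left out a library (log2 fold change -1.29 to -1.09, adjusted p 0.0518 to 0.106): gamma 18 h replicates 2, 3, 4 and 5, 21 h replicates 1 and 4, 27 h replicates 3 and 4 and 30 h replicates 2, 3 and 4, and alpha-beta 18 h replicates 4 and 5, 21 h replicate 2, 24 h replicate 6, 27 h replicates 1 and 5 and 30 h replicate 5. The ligand of Beat-VI, side-II, averaged 402 ± 168 CPM in gamma and 299 ± 99.7 CPM in alpha-beta neurons and was not called (log2 fold change 0.41, SE 0.18, edgeR adjusted p = 0.231). side-VIII (log2 fold change -1.69) and side-V (-1.85) had the most negative values of the Side genes and were not called either. side-V was at 0 in 12 of 23 gamma libraries and in none of the 25 alpha-beta libraries.

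klg encodes Klingon, a homophilic adhesion protein needed for photoreceptor R7 and for long-term memory in flies. It ranged from 41.5 CPM (median 93.7, highest 186) in pupal gamma libraries, against 65 CPM (median 156, highest 483) in pupal alpha-beta libraries. The groups overlapped, with 4 of 23 gamma libraries above the alpha-beta median. The means at 18, 21, 24, 27 and 30 h were 92.2, 125, 97.9, 141 and 77 CPM in gamma neurons, against 243, 113, 246, 143 and 201 CPM in alpha-beta neurons, so at 21 and 27 h the groups did not lie apart. The log2 fold change was -0.79 (SE 0.20, edgeR adjusted p = 0.00793), and no single library removed the call.

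The highest expressed of the remaining members lay closer together. Dscam2, a homophilic protein whose isoforms mediate repulsion between like neurites, averaged 317 ± 118 CPM in gamma and 245 ± 78.2 CPM in alpha-beta neurons (log2 fold change 0.35, edgeR adjusted p = 0.355). Dscam3 averaged 144 ± 53.4 CPM in gamma and 92.7 ± 38 CPM in alpha-beta neurons (0.63, adjusted p = 0.31), and Dscam4 averaged 148 ± 63.1 CPM in gamma and 114 ± 33.8 CPM in alpha-beta neurons. tutl, which keeps neighbouring axon terminals and dendrite branches apart, averaged 274 ± 86.0 CPM in gamma and 355 ± 94.0 CPM in alpha-beta neurons (log2 fold change -0.36, SE 0.13, adjusted p = 0.0998). None of the 4 genes of the irre cell recognition module, the 2 Echinoid genes and the 2 septate junction genes was called. Ama, a secreted partner of Neurotactin, was detected in 14 of 23 gamma and 11 of 25 alpha-beta libraries, with up to 44.7 CPM in gamma and 29.4 CPM in alpha-beta neurons.

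Markers of neuroblasts and newborn neurons moved with this contrast. The summed level of the 5 markers (dpn, wor, ase, mira, grh) averaged 0.987 to 12.7 CPM in the pupal gamma groups, against 36.8 to 104 CPM in the pupal alpha-beta groups. Of these, dpn, wor and ase were called lower in gamma neurons, and mira and grh were not called (edgeR adjusted p = 0.617 and 0.516). Leaving out 1 library ended the dpn call in 4 of 48 fits and the ase call in 1, while the wor call held throughout. The photoreceptor marker chp was called higher in gamma neurons (log2 fold change 5.26, edgeR adjusted p = 0.0122), with group means of 2.14 to 14.6 CPM in pupal gamma and 0 to 6.01 CPM in pupal alpha-beta neurons. It lost that call in 2 of 48 fits that left out a library. The photoreceptor markers ninaE (0.24) and ninaC (0.15) were not called. The hemocyte marker Pxn was called higher in gamma neurons (log2 fold change 0.90, edgeR adjusted p = 4.74e-05). Its level alone does not show the presence of hemocytes, and Hml, another hemocyte marker, is given below for adults only. The part of these markers in the differences between gamma and alpha-beta neurons was not tested.

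**Figure D2:**
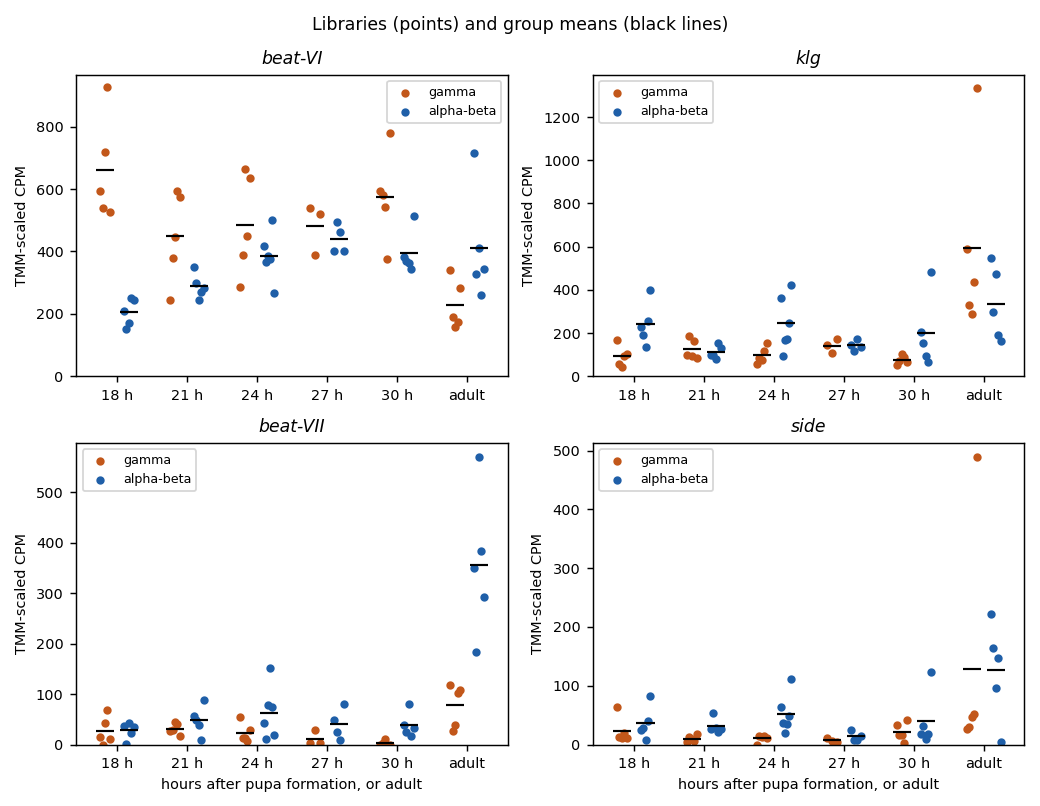
Levels of beat-VI, klg, beat-VII and side, the 4 members called between pupal gamma and alpha-beta neurons, as TMM-scaled CPM per library (points) with group means (black lines) from 18 h to adult, gamma left of alpha-beta at each stage. beat-VI is higher in gamma neurons at 18 h (means 661 and 205 CPM) and lower in gamma adults (229 and 412 CPM), and klg reaches 1332 CPM in 1 gamma adult library.

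Between adult gamma and adult alpha-beta neurons, side-VI and tutl were lower in gamma neurons. These 2 members (5.41% of 37) were called, against 3.6% of all genes. Of all genes, 2.11% were called higher and 1.49% lower, and of the members 0 and 2. The median log2 fold change was -0.86 over the members and 0 over all genes, and 10 of 37 members had a positive value, as did 47.4% of all genes. All 13 Beat genes had a negative log2 fold change and none was called. Without the 5 libraries, side-VI and tutl were no longer called and 4 other members were called lower in gamma neurons: beat-IIIb (-2.80, edgeR adjusted p = 0.000131), beat-IIIc (-3.14, adjusted p = 0.014), beat-VI (-1.70, adjusted p = 0.000702) and Dscam2 (-1.85, adjusted p = 0.0286). With all libraries, 9 members had an unadjusted p under 0.05.

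side-VI, a Side family protein, had 70.0, 113, 129.7, 184 and 80.3 CPM in adult gamma libraries, against 231, 326, 267, 275 and 241 CPM in adult alpha-beta libraries. The groups did not overlap. For side-VI the log2 fold change was -1.22 (SE 0.32, edgeR adjusted p = 0.0193). It was no longer called without gamma adult replicate 1 or 5 (-1.11 and -1.07, adjusted p 0.0517 to 0.0567), without all 5 libraries named above (-0.81, adjusted p = 0.408) and in a fit of the adult groups alone (adjusted p = 0.501). In pupae side-VI did not separate the cell types, with 106 ± 32.8 CPM in gamma and 109 ± 36 CPM in alpha-beta neurons.

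tutl had 521, 313, 319.8, 665 and 428 CPM in adult gamma libraries, against 854, 642, 1070.5, 1329 and 540.2 CPM in adult alpha-beta libraries. The highest gamma library lay above the 2 lowest alpha-beta libraries, and the other 4 gamma libraries lay below all 5. For tutl the log2 fold change was -0.98 (SE 0.29, edgeR adjusted p = 0.0384). The call was lost without gamma adult replicate 2, 3 or 5 or alpha-beta adult replicate 3 or 4 (-0.97 to -0.80, adjusted p 0.0645 to 0.128), without the 5 libraries (-1.15, adjusted p = 0.125), without the filter on low counts (adjusted p = 0.0522) and in a fit of the adult groups alone (adjusted p = 0.599).

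beat-VI, which was higher in pupal gamma neurons, had 342, 189, 159, 173 and 282 CPM in adult gamma libraries, against 716, 329, 409.6, 262 and 344 CPM in adult alpha-beta libraries. The highest gamma values overlapped with the lowest alpha-beta values, and the difference missed the threshold (log2 fold change -0.85, SE 0.26, edgeR adjusted p = 0.0512). beat-VII had 118, 27.0, 39.5, 103 and 109 CPM in adult gamma libraries, against 350.4, 184, 569.5, 383 and 292 CPM in adult alpha-beta libraries. These groups did not overlap, although the gene was not called (log2 fold change -2.17, SE 1.02, edgeR adjusted p = 0.213). The same held for beat-Ia (adjusted p = 0.223) and side-VIII (adjusted p = 0.271). The share of all genes without overlap is not given here for any comparison, so a lack of overlap does not single out a member. Summed over the 13 Beat genes, adult gamma libraries had 856 ± 349.8 CPM and adult alpha-beta libraries 2077 ± 597 CPM (SD, n = 5 each), with ranges of 553 to 1388 CPM and 1493 to 2924 CPM.

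**Figure D3:**
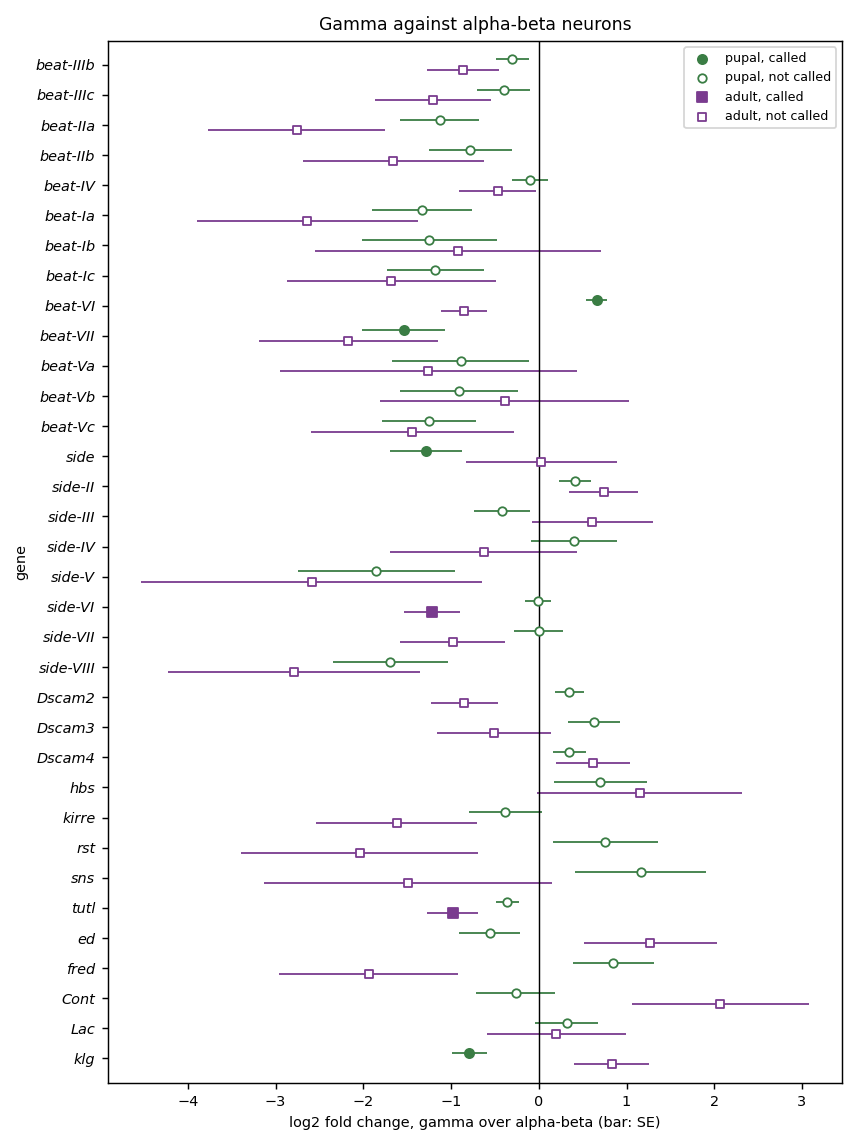
Log2 fold change of gamma over alpha-beta neurons for 34 members (points; bars are 1 SE), in pupae (circles) and in adults (squares), filled where called. Nearly all Beat genes lie left of 0, and beat-VI is the 1 Beat gene right of 0 in pupae (0.66). Ama, bdl and ImpL2, with many libraries at 0, are left out.

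Markers of other cells also differed between adult and 30 h libraries, beside every adult value given here. The summed level of 6 markers of other neuron types (VGlut, Gad1, ple, Vmat, SerT, Tdc2) was 535 to 2609 CPM in adult gamma libraries, against 21.3 to 89.6 CPM in gamma libraries at 30 h. In alpha-beta neurons it was 586 to 3233 CPM in adult libraries, against 17.4 to 91.3 CPM at 30 h. Of the 6, Gad1, which makes the transmitter GABA, was called higher in adults of both cell types. The summed level of 8 glial markers was 505 to 3484 CPM in adult gamma libraries, against 442 to 781 CPM at 30 h, and 816 to 2801 CPM in adult alpha-beta libraries, against 456 to 697 CPM at 30 h. Of the 8, Gs2, a glutamine synthetase, was called higher in adults of both cell types, while the defining glial marker repo was at 0 in all adult alpha-beta libraries and averaged 2.73 CPM in adult gamma libraries. The 5 muscle markers summed to 0 to 159.7 CPM and the 4 photoreceptor markers to 0 to 22.9 CPM in adult gamma libraries, with Mhc and ninaE called higher than at 30 h. The hemocyte marker Pxn averaged 510.4 CPM in adult gamma and 154 CPM in adult alpha-beta libraries and was called higher in gamma neurons of pupae and of adults, while Hml, another hemocyte marker, averaged 0.0127 CPM in adult gamma and 0.105 CPM in adult alpha-beta libraries. The 4 fat body markers summed to at most 64.5 CPM in adult gamma and 112 CPM in adult alpha-beta libraries. The neuroblast markers dpn, wor, ase and grh were at 0 in all adult libraries. The summed level of the Kenyon cell markers was 10270 to 22312 CPM in adult gamma and 3772 to 7901 CPM in adult alpha-beta libraries. Among them, ab, mamo and Dop1R1 were called higher in adult gamma than in adult alpha-beta neurons (log2 fold changes 3.87, 2.38 and 1.89). The other Kenyon cell markers, ey, toy, dac, prt, mub and Pka-C1, were not called. Without the 5 libraries, Gad1 stayed called in both cell types (adjusted p = 0.000918 in gamma and 2.98e-05 in alpha-beta neurons), as did Gs2 in alpha-beta (0.00206) and ninaE in gamma neurons (0.035). Gs2 (0.0762) and Mhc (0.075) in gamma neurons and Pxn between adult gamma and alpha-beta neurons (0.11) were then not called. The part of these markers in the adult differences was not tested.

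The next comparison set adult neurons against neurons at 30 h after pupa formation, in each cell type. The labels do not say whether axons were still growing at 30 h. In gamma neurons klg, beat-VII, side-III and bdl rose in adults, and beat-VI, Lac and Ama fell. In alpha-beta neurons tutl, beat-IIIb and beat-VII rose, and side-II, Cont and Lac fell. The 7 members called in gamma neurons (18.9%) stand against 10.2% of all genes, and the 6 called in alpha-beta neurons (16.2%) against 12.5%. In gamma neurons 4 members were called higher and 3 lower, against 5.06% and 5.18% of all genes. In alpha-beta neurons 3 were called higher and 3 lower, against 4.69% and 7.8% of all genes. The median log2 fold change was 0.51 over the members and -0.07 over all genes in gamma neurons, with 21 of 37 positive. It was 0.85 over the members and -0.16 over all genes in alpha-beta neurons, with 28 of 37 positive. The share of all genes with a positive value is not given here for either cell type. The gamma and alpha-beta comparisons share no libraries.

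Among the Beat genes, beat-VII rose in both cell types. In gamma neurons its adult values, 118, 27.0, 39.5, 103 and 109 CPM, stood against 0, 2.91, 10.7, 0 and 0 CPM at 30 h. In alpha-beta neurons its adult values, 350.4, 184, 569.5, 383 and 292 CPM, stood against 38.8, 24.6, 80.8, 16.3 and 32 CPM at 30 h. Adult and 30 h libraries did not overlap in either cell type. For beat-VII the adult over 30 h log2 fold change was 4.84 in gamma neurons (SE 1.15, edgeR adjusted p = 0.00268) and 3.21 in alpha-beta neurons (SE 1.06, adjusted p = 0.0352). The gamma call held without any single library and without the 5 libraries (4.36, adjusted p = 0.0153), but not in a fit of the gamma adult and 30 h groups alone (adjusted p = 0.133). The alpha-beta call was lost without alpha-beta 30 h replicate 1, 2, 4 or 5 or adult replicate 3 (2.97 to 3.20, adjusted p 0.0593 to 0.0854) and without the 5 libraries (3.56, adjusted p = 0.0653).

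beat-VI fell in gamma neurons, to 342, 189, 159, 173 and 282 CPM in adults, against 595, 582, 541, 376 and 780.3 CPM at 30 h. No adult library reached the lowest 30 h library. The log2 fold change was -1.33 (SE 0.26, edgeR adjusted p = 0.000263), and it was -1.73 (adjusted p = 1.77e-05) without the 5 libraries. In alpha-beta neurons the adult libraries averaged 412 ± 178 CPM, against 394 ± 67.7 CPM at 30 h. The difference between the cell types in this change had a log2 value of -1.39 (SE 0.37) and missed the threshold (edgeR interaction test, adjusted p = 0.0519). It was called with the replicate number as a block (-1.40, adjusted p = 0.0372), with the S number as a block (-1.40, adjusted p = 0.0297) and without the 5 libraries (-2.22, adjusted p = 0.000604), and not in a fit of the adult and 30 h groups alone (-1.33, adjusted p = 0.271).

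beat-IIIb rose in alpha-beta neurons, to 579, 317, 343, 204 and 211 CPM in adults, against 141, 101, 130.3, 103 and 205 CPM at 30 h. The lowest adult library lay just under the highest 30 h library, and the other 4 lay above it. For beat-IIIb the log2 fold change was 1.28 (SE 0.41, edgeR adjusted p = 0.0296), and it was 1.74 (adjusted p = 0.00244) without the 5 libraries. The call ended without alpha-beta 30 h replicate 1, 2, 3 or 4 or adult replicate 1 (0.96 to 1.27, adjusted p 0.0559 to 0.126). In gamma neurons beat-IIIb had 380.2, 86.8, 43.9, 69.3 and 332 CPM in adults, against 133, 125, 65.6, 39.9 and 63.9 CPM at 30 h, and was not called (log2 fold change 1.09, adjusted p = 0.0743, and -0.36 without the 5 libraries). beat-IV and beat-IIIc, among the 12 members with the highest mean levels, were not called in either cell type: beat-IV averaged 89.0 ± 25.7 CPM in adult gamma neurons, against 108 ± 63.1 CPM at 30 h, and 124 ± 74.7 CPM in adult alpha-beta neurons, against 124 ± 60.4 CPM at 30 h. For beat-IIIc, 1 adult gamma library had 296 CPM while the other 4 had 3.33 to 38.9 CPM. beat-IIa averaged 175 ± 98.4 CPM in adult alpha-beta neurons, against 26.6 ± 22.3 CPM at 30 h (log2 fold change 2.72, adjusted p = 0.0627), and 25.8 ± 20.2 CPM in adult gamma neurons, against 35.4 ± 37.1 CPM at 30 h.

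Among the Side genes, side-II fell in alpha-beta neurons, to 236, 73.0, 184, 38.6 and 179 CPM in adults, against 554, 342, 318, 356 and 252 CPM at 30 h. The groups did not overlap. For side-II the log2 fold change was -1.36 (SE 0.40, edgeR adjusted p = 0.0158), and the call was lost without alpha-beta 30 h replicate 1 or adult replicate 2 or 4 (-1.20 to -1.12, adjusted p 0.0546 to 0.0594), without the 5 libraries (-0.81, adjusted p = 0.354) and in a fit of the alpha-beta adult and 30 h groups alone (adjusted p = 0.0868). In gamma neurons side-II averaged 238 ± 121 CPM in adults, against 319.9 ± 133 CPM at 30 h, and was not called.

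side-III rose in gamma neurons, to 262, 63.8, 22.1, 93.9 and 91.8 CPM in adults, against 16.7, 22.1, 20.8, 10.6 and 48.5 CPM at 30 h. The groups overlapped, and the highest adult value came from replicate 1, a library whose median gene had no count. For side-III the log2 fold change was 2.17 (SE 0.72, edgeR adjusted p = 0.0396). The call was lost under 6 of 9 alternatives, without the 5 libraries among them (1.34, adjusted p = 0.277), and without gamma 30 h replicate 1, 2, 3 or 4 or adult replicate 1 (1.53 to 2.14, adjusted p 0.0742 to 0.159). side averaged 129 ± 202 CPM in adult gamma neurons, against 22.1 ± 15.2 CPM at 30 h, where replicate 5 alone had 489 CPM and the other 4 adult libraries 26.6 to 52.3 CPM. It was not called there (log2 fold change 2.55, adjusted p = 0.0591).

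The Turtle genes tutl and bdl are neighbours on the chromosome, and each was called higher in adults in 1 cell type. tutl rose in alpha-beta neurons, to 854, 642, 1070.5, 1329 and 540.2 CPM in adults, against 438, 291, 406, 539 and 422 CPM at 30 h. All 5 adult libraries lay above the 5 at 30 h, the lowest of them barely. The log2 fold change was 1.08 (SE 0.29, edgeR adjusted p = 0.00642), and it was 1.18 (adjusted p = 0.0204) without the 5 libraries. In gamma neurons tutl averaged 449 ± 148 CPM in adults, against 315 ± 104 CPM at 30 h, and was not called.

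bdl, which acts with tutl in spacing photoreceptor axon terminals, had 104, 15.5, 44.8, 1.15 and 0 CPM in adult gamma libraries, against 0 CPM in all 5 gamma libraries at 30 h. The group means differed at least 149.9-fold, taking 3 counts per library, 0.22 CPM on average, as the floor at 30 h. The call in gamma neurons (edgeR adjusted p = 0.012) held without any single library and without the 5 libraries (adjusted p = 0.0326). A fit of the gamma adult and 30 h groups alone did not test bdl, which its filter on low counts removed. In alpha-beta neurons bdl had 0, 180.1, 61.7, 28.2 and 18.2 CPM in adults, against 0.0779, 0, 0, 0.926 and 0 CPM at 30 h, and missed the threshold (adjusted p = 0.0521). In pupae its highest value was 26.5 CPM, in a gamma library at 18 h, where 3 of 5 gamma libraries had 13.1 to 26.5 CPM and all 5 alpha-beta libraries had 0.

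The 2 septate junction genes fell in adult alpha-beta neurons, and 1 of them in adult gamma neurons. Lac, which encodes Lachesin, had 0, 20.7, 37.8, 24.7 and 0.876 CPM in adult gamma libraries, against 293, 222, 289, 202 and 144 CPM at 30 h. In alpha-beta neurons it had 38.5, 15.5, 19.5, 0 and 0 CPM in adults, against 72.8, 155, 214, 167 and 237 CPM at 30 h. No adult library reached the lowest 30 h library of its cell type. For Lac the log2 fold change was -3.76 in gamma neurons (SE 0.88, edgeR adjusted p = 0.00218) and -3.52 in alpha-beta neurons (SE 0.87, adjusted p = 0.0031). Without the 5 libraries, which include all 4 with the lowest values, the changes were -3.06 in gamma neurons (adjusted p = 0.000247) and -2.57 in alpha-beta neurons (adjusted p = 0.00902). In a fit of only the adult and 30 h groups of a cell type, neither was called (adjusted p = 0.0595 in gamma and 0.117 in alpha-beta neurons). Between 18 and 30 h Lac averaged 185 ± 84.6 CPM in gamma and 151 ± 70.8 CPM in alpha-beta libraries, and its lowest pupal library, a gamma one, had 20.5 CPM.

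Cont, which encodes Contactin, had 0, 4.26, 20.9, 1.2 and 0 CPM in adult alpha-beta libraries, against 24.4, 37.2, 107, 40.7 and 35.8 CPM at 30 h. The groups did not overlap, although the highest adult library lay near the lowest 30 h library. For Cont the log2 fold change was -3.20 (SE 1.05, edgeR adjusted p = 0.0337). It was no longer called without alpha-beta 30 h replicate 3 or adult replicate 1, 2, 4 or 5 (-3.17 to -2.70, adjusted p 0.0629 to 0.0933), without the 5 libraries (-2.24, adjusted p = 0.322) and in a fit of the alpha-beta adult and 30 h groups alone (adjusted p = 0.258). In gamma neurons Cont had 57.3, 9.15, 30.8, 13.4 and 0.876 CPM in adults, against 1.01, 18.3, 76.6, 34.4 and 1.46 CPM at 30 h, with full overlap.

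**Figure D4:**
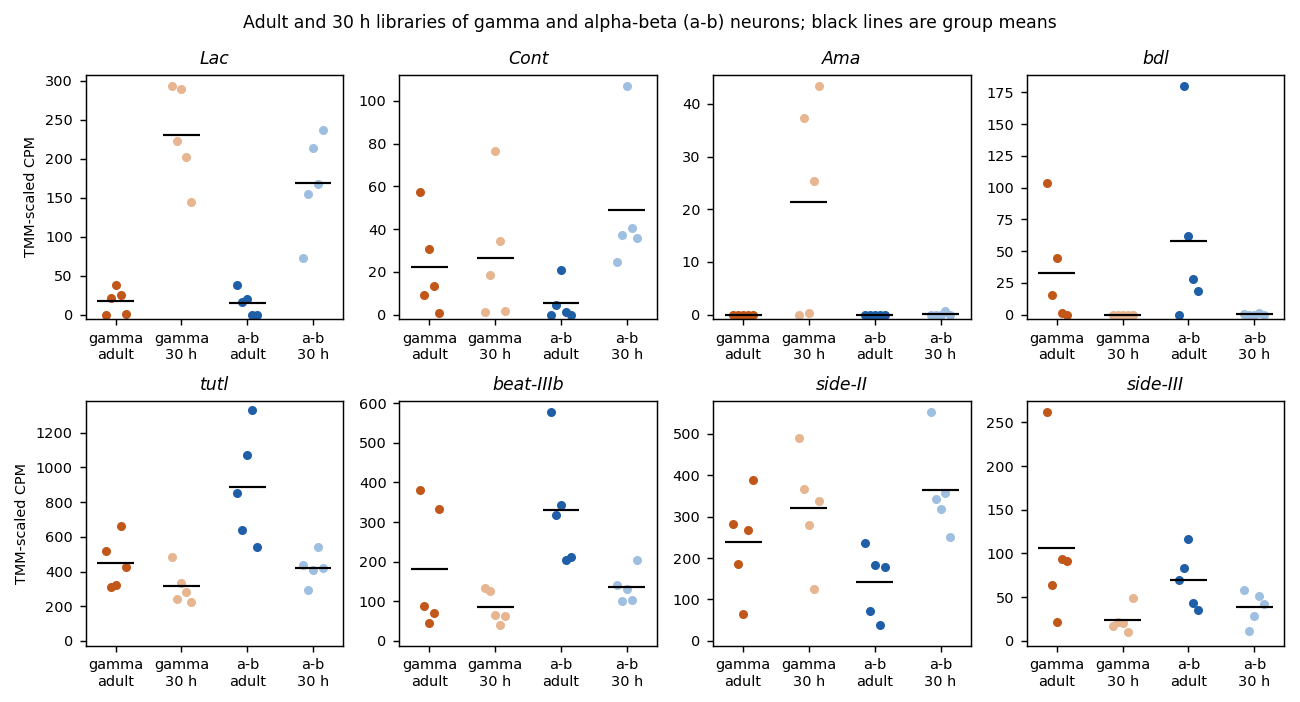
TMM-scaled CPM of 8 members in adult and 30 h libraries of gamma (orange) and alpha-beta neurons (blue); points are libraries and black lines group means, on a linear axis that differs between panels. Lac is at most 38.5 CPM in adults and at least 72.8 CPM at 30 h, while bdl is near 0 at 30 h and reaches 180.1 CPM in adults.

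klg rose in gamma neurons, to 589, 331, 288, 436 and 1332 CPM in adults, against 50.6, 73.3, 103, 90.2 and 67.6 CPM at 30 h. Every adult library had more than the highest 30 h library. For klg the log2 fold change was 2.95 (SE 0.46, edgeR adjusted p = 4.19e-06), 2.39 to 3.13 without single libraries and 2.18 (adjusted p = 0.000538) without the 5 libraries. In alpha-beta neurons klg had 547, 298, 472, 190 and 162 CPM in adults, against 207, 152, 95.6, 65.0 and 483 CPM at 30 h, with overlap and no call. The difference in this change between the cell types was 2.21 on the log2 scale (SE 0.61) and was not called (edgeR interaction test, adjusted p = 0.0618). Without the 5 libraries it was 0.87 (adjusted p = 0.871).

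Ama fell in gamma neurons, to 0 CPM in all 5 adult libraries, against 0, 37.4, 0.237, 25.4 and 43.4 CPM at 30 h. The 30 h libraries split into 3 with clear expression and 2 at or near 0, so the groups overlapped at 0. The adult mean was at least 71.8-fold lower, with 3 counts per library (0.296 CPM on average) as the floor, and the edgeR adjusted p was 0.032. The call was lost when any single adult gamma library was left out (adjusted p 0.0557 to 0.0637) and without the 5 libraries (adjusted p = 0.108). In alpha-beta neurons Ama was at 0 in all adult libraries too, and at 30 h it was at 0 in 4 libraries and at 0.637 CPM in replicate 4. At 21 h all 5 alpha-beta libraries had Ama counts, from 2.05 to 29.4 CPM.

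Of the remaining members, none was called between adults and 30 h. Without the 5 libraries, Dscam3 (-2.41, edgeR adjusted p = 0.00947) and rst (-6.23, adjusted p = 0.0251) were called lower in gamma adults. Dscam4 averaged 62.7 ± 33.9 CPM in adult alpha-beta neurons, against 142 ± 33.6 CPM at 30 h (a log2 change of -1.18, edgeR adjusted p = 0.0555), and 96.3 ± 31 CPM in adult gamma neurons, against 143 ± 26.7 CPM at 30 h. Dscam2 averaged 517 ± 145 CPM in adult alpha-beta neurons, against 298 ± 140 CPM at 30 h, and Dscam3 averaged 52.6 ± 42.7 CPM in adult gamma neurons, against 131 ± 42.3 CPM at 30 h. kirre, which drives recognition between fusing myoblasts, averaged 101 ± 27.6 CPM in adult alpha-beta neurons, against 16.4 ± 24.9 CPM at 30 h, with no overlap (log2 fold change 2.62, adjusted p = 0.0596). Its relatives rst, sns and hbs stayed under 30 CPM on average in these 4 groups. The Echinoid genes ed and fred, homophilic proteins that restrain EGFR signalling in the eye, averaged 69.9 ± 49.5 and 22.6 ± 19.7 CPM in adult gamma neurons, against 27.9 ± 17.5 and 68.7 ± 23.6 CPM at 30 h. In alpha-beta neurons they averaged 28.9 ± 27.1 and 86.6 ± 42.7 CPM in adults, against 38.8 ± 19.1 and 21.3 ± 14.1 CPM at 30 h, so the signs of both differences were opposite in the 2 cell types. Neither interaction was called (for fred -3.63, SE 1.44, adjusted p = 0.227).

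**Figure D5:**
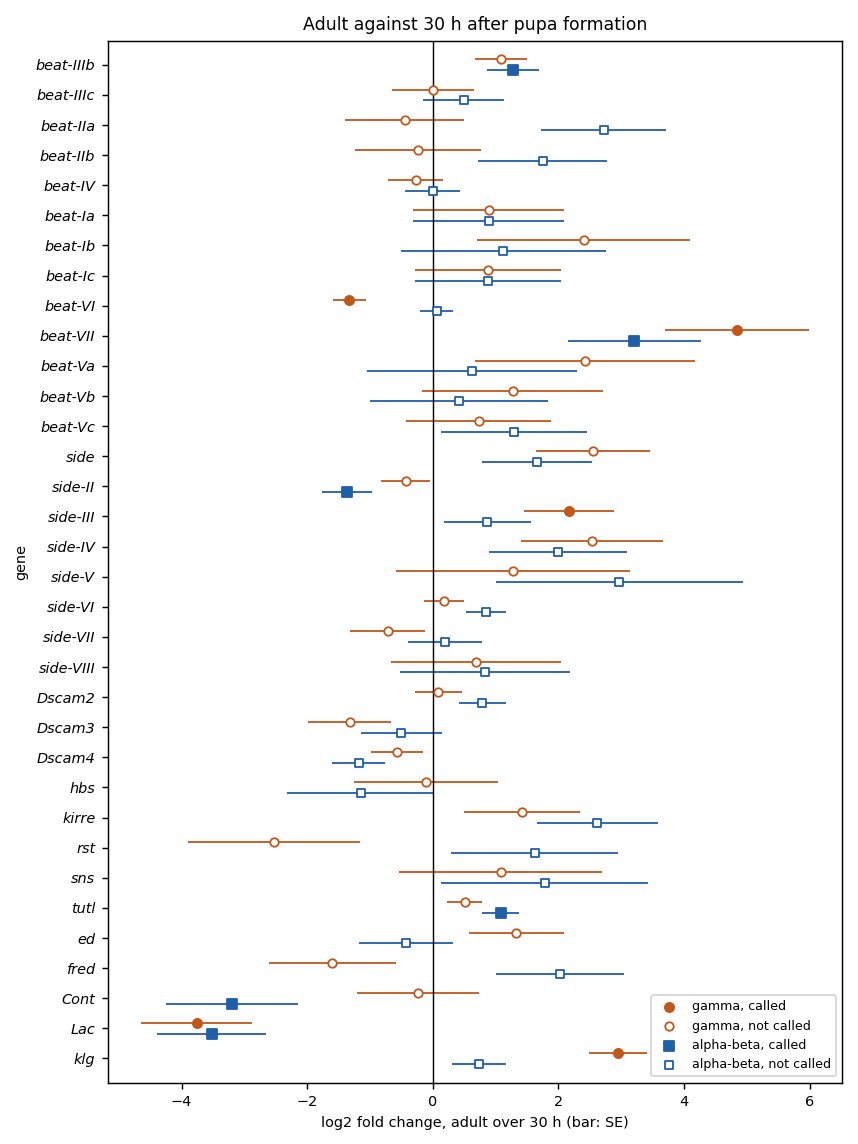
Log2 fold change of adult over 30 h for 34 members (points; bars are 1 SE) in gamma (circles) and alpha-beta neurons (squares), filled where called. Lac lies near -3.5 and beat-VII right of 3 in both cell types, klg is called in gamma neurons (2.95) and tutl in alpha-beta neurons (1.08). Ama, bdl and ImpL2, with many libraries at 0, are left out.

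The time courses asked which members changed between 18 and 30 h, as a linear change over 12 h. In alpha-beta neurons 1 member, beat-VI, rose (1 of 37, against 0.208% of all genes called in either direction and 0.149% called higher). It had 209.9, 152, 172, 249.7 and 244 CPM at 18 h, 350.2, 298, 245, 269 and 282 CPM at 21 h, and a lowest, median and highest value of 268, 381 and 501 CPM at 24 h. At 27 h it had 403, 495, 462 and 402 CPM and at 30 h 381, 371, 363, 344 and 513 CPM. Every library at 27 and 30 h lay above the 5 at 18 h. The fitted log2 change was 1.00 (SE 0.23, edgeR adjusted p = 0.0432). This call rests on nearly every library: it was lost in 18 of 19 fits that left out 1 of those with weight in the trend (0.91 to 1.07, adjusted p 0.0506 to 0.168), all except alpha-beta 21 h replicate 1, and under DESeq2 size factors (adjusted p = 0.0719) or without the filter on low counts (adjusted p = 0.0764). The next in alpha-beta neurons were side-VI (0.87, adjusted p = 0.276) and beat-IIIb (0.84, adjusted p = 0.427).

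In gamma neurons 0 members were called over the pupal stages by edgeR, against 0.109% of all genes (0.0496% called higher). Without adjustment 5 had a p under 0.05, and DESeq2 called 4, with no share over all genes given here for either count. Among the 5, bdl was nearest the threshold (fitted log2 change -10.8, SE 2.78, edgeR adjusted p = 0.119). It had counts in 3 of 5 gamma libraries at 18 h and in none at 27 and 30 h. beat-VII averaged 27.4, 31.4, 22.8, 11.7 and 2.72 CPM from 18 to 30 h (fitted log2 change -3.22, SE 0.98, edgeR adjusted p = 0.191). beat-IIa averaged 8.97, 4.34, 9.58, 20.6 and 35.4 CPM (2.48, SE 0.90, adjusted p = 0.24). The slopes of gamma and alpha-beta neurons did not differ for any member by edgeR, where 0% of all genes were called. There 7 members had an unadjusted p under 0.05, DESeq2 called 3 and limma-voom called 1, again without shares over all genes. For bdl, again nearest the threshold, the difference in slope was -13.65 (SE 3.34, edgeR adjusted p = 0.181). For beat-VI the difference in slope was -1.11 (SE 0.33, edgeR adjusted p = 0.225).

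For the difference between cell types in the change from 30 h to adult, 0 members were called by edgeR, against 0.665% of all genes. 6 members had an unadjusted p under 0.05: beat-VI, klg, beat-IIa, fred, rst and Cont. DESeq2 and limma-voom each called 3 members, beat-VI among them in both. Shares over all genes are not given here for these counts. A call in gamma and not in alpha-beta neurons, or the reverse, therefore does not show that the cell types differed in that change.

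A list of 16 partners and effectors of these proteins was examined beside them (Fas2, Con, Nrt, Nrx-IV, Nrg, InR, Egfr, cindr, wrapper, dock, Pak, mbc, siz, Dscam1, cno and baz). From 30 h to adult, 3 of 16 fell in alpha-beta neurons and 1 fell in gamma neurons, and none rose. Of all genes, 7.8% were called lower and 4.69% higher in alpha-beta neurons, and 5.18% lower and 5.06% higher in gamma neurons. Nrt, the surface receptor of Ama, averaged 79.6 ± 35.0 CPM in adult gamma neurons, against 341 ± 89.6 CPM at 30 h (log2 fold change of -2.10 with an SE of 0.61, edgeR adjusted p = 0.0162). In alpha-beta neurons Nrt averaged 38.1 ± 44.5 CPM in adults, against 382 ± 237 CPM at 30 h (-3.32, SE 0.64, adjusted p = 0.000125). Both Nrt calls held without any single library and without the 5 libraries (-2.09, adjusted p = 0.00779 in gamma and -2.21, adjusted p = 0.0195 in alpha-beta neurons). The Ama call in gamma neurons did not hold in this way. InR, the receptor of the insulin-like peptides that ImpL2 binds, fell in alpha-beta neurons (-1.78, SE 0.57, adjusted p = 0.0289), as did Dscam1 (-1.17, SE 0.36, adjusted p = 0.0201). Leaving out 1 library ended the InR call in 4 of 10 fits (adjusted p up to 0.0785) and the Dscam1 call in 3 of 10 (up to 0.0672). Without the 5 libraries both stayed called (InR -3.25, adjusted p = 0.0006, and Dscam1 -1.51, adjusted p = 0.0363), and InR was called lower in gamma adults too (-2.59, adjusted p = 0.000792). Nrx-IV and Nrg, which join Cont at septate junctions, were not called in either cell type: in alpha-beta neurons Nrg averaged 260.2 ± 94.4 CPM in adults, against 406 ± 66.6 CPM at 30 h (adjusted p = 0.0913). wrapper, a glial ligand of Nrx-IV, was the 1 partner called between adult gamma and alpha-beta neurons. It averaged 13 ± 20.6 CPM in gamma, against 0.073 ± 0.163 CPM in alpha-beta neurons (adjusted p = 0.049), and lost that call in 6 of 10 fits without a library and without the 5 libraries (adjusted p = 0.274). Of all genes, 3.6% were called in that comparison. In pupae 0 of the 16 partners were called by edgeR and 3 had an unadjusted p under 0.05. Fas2 was nearest (log2 fold change 0.42, gamma over alpha-beta, adjusted p = 0.0511).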

How the data were processed

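The authors deposited 1 table of whole-number, unnormalised counts with genes in rows and libraries in columns, per the file headers. Nothing else was used, and STAR is named in the submitters' processing notes. The counting program, annotation and genome build are not given in the sources used here, so no coordinates are given. No column was left without a sample (0 such columns). Genes were filtered by filterByExpr (minimum count 10, minimum total 15), which left 10072 genes, scaled by TMM and tested in 1 fit of all 12 groups with edgeR 4.0.16 (R 4.3.3) quasi-likelihood tests, two-sided, with Benjamini-Hochberg adjustment within a comparison and calls at 0.05. The common biological coefficient of variation was 1.34. Standard errors were obtained as the absolute log2 fold change over the square root of F.

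Alternatives were DESeq2 1.42.0, limma-voom (limma 3.58.1) with sample weights, other size factors, no filter, robust dispersion, only the groups compared, covariates for the replicate number and the S number of the library name, and each library left out in turn (58 fits, reusing the dispersion trend of the full fit). Floors of 3 counts cover counting error only, since the reads carry no molecular identifiers. The 114 pairs of libraries within groups differed by a chi-square per degree of freedom of 86 to 913, so none was counted as a duplicate. The fit was tested on simulated counts.

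The members and gene lists were chosen with earlier results of these data known. Values are given library by library, or as lowest, median and highest, for members called in any comparison and for the 12 with the highest mean CPM. Exon lengths, gene spans and neighbours came from the BDGP6 annotation, matched by symbol. The gene beat-IIIa was not analysed here. Protein and promoter sequences were not used here.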

Additional observations from a re-analysis of the deposited data

Results flagged for a closer look

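In groups of 4 to 6 libraries, 1 library of a group stood far from its neighbours in 27 of 198 groups tested (13.6%), over the 18 members whose values are given by library. Chance gives about 1 in 20 only where values are normally distributed, which was not tested for these CPM values. The 13.6% therefore does not show an excess of libraries that stand apart. Of the 27, 25 were high and 2 were low.

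In adult libraries, gamma replicate 5 had 1332 CPM of klg (next 589) and 489 CPM of side (next 52.3), gamma replicate 1 had 296 CPM of beat-IIIc (next 38.9), and alpha-beta replicate 3 had 20.9 CPM of Cont (next 4.26). Without gamma adult replicate 5 the klg change from 30 h stayed called.

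In gamma libraries at 18 h, replicate 1 was high for 3 genes: side at 64.2 CPM, side-II at 912 CPM and Dscam2 at 728 CPM. At 21 h bdl was at 3.58 CPM in replicate 2 and 0 in the other 4. At 24 h beat-IV was at 284 CPM in replicate 4, bdl at 1.59 CPM in replicate 3, and tutl was low at 181 CPM in replicate 2. At 30 h beat-VII was at 10.7 CPM in replicate 3, and side-VI was low at 71.3 CPM in replicate 2.

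In alpha-beta libraries at 18 h, Ama was at 19 CPM in replicate 2. At 21 h replicate 2 was high for beat-IIIb (106 CPM) and side (54.4 CPM), and replicate 5 for beat-IV (253 CPM). At 24 h replicate 6 was high for beat-IIIc (508 CPM) and side-III (78.6 CPM), and replicate 5 for Ama (7.04 CPM). At 27 h replicate 1 was high for side-II (508 CPM) and Ama (23.8 CPM). At 30 h replicate 5 was high for beat-VI (513 CPM) and side (124 CPM), replicate 4 for bdl (0.926 CPM) and Ama (0.637 CPM), and replicate 3 for Cont (107 CPM).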

How the results depend on the processing

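Called members kept their direction under every alternative run, with 0 reversals. Called under all of them and without any single library were beat-VI in pupae (0.63 to 0.70 without single libraries) and in gamma adults, klg in both its comparisons and tutl in alpha-beta adults. bdl in gamma adults stayed called in the 8 alternatives that tested it and without any single library. In a fit of the gamma adult and 30 h groups alone, 32 of the 37 members passed the filter, and bdl and Ama were not tested. Counts of called members moved by over 1.5 times as follows. DESeq2 called 8 in pupae, 4 between adults, 12 from 30 h to adult in alpha-beta neurons, 2 in the alpha-beta and 4 in the gamma time course, and 3 in each interaction. Limma-voom called 9 in pupae, 9 between adults, 15 from 30 h to adult in alpha-beta neurons, 3 in the interaction of cell type with adult stage and 1 in that with the time course. With only the groups compared, 0 were called between adults and 2 (beat-VI and klg) from 30 h to adult in gamma neurons. Without the filter, 1 was called between adults and 0 in the alpha-beta time course, where DESeq2 size factors also gave 0. In the interaction with adult stage, DESeq2 size factors, robust dispersion and leaving out the 5 libraries whose median gene had no count each gave 1. Without those 5 libraries, 4 were called between adults (beat-IIIb, beat-IIIc, beat-VI and Dscam2, none of them called with all libraries) and 3 from 30 h to adult in alpha-beta neurons. The setting changed these counts, and the cause was not tested. The shares of all genes called under these alternatives are not given here, so no such count shows an excess among the members. Leaving out each library gave 2 to 6 in pupae, 1 to 4 between adults, 6 to 8 from 30 h to adult in gamma and 3 to 8 in alpha-beta neurons, 0 to 1 in each time course, 0 to 2 in the adult interaction and 0 to 0 in the time course interaction. Same-numbered libraries of gamma and alpha-beta groups did not deviate together throughout (correlations -0.113 to 0.338), so the replicate numbers were not taken as pairs. With the replicate block the counts stayed within 1.5 times, except that 1 member (beat-VI) was called in the adult interaction, as with the S-number block (1). side in pupae was lost with either block (-1.04, adjusted p = 0.127, with the replicate number). Members with many libraries at 0 (bdl, Ama, ImpL2) are limited by depth.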
